A study of Homo sapiens with 23 samples.

Results

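Apolipoproteins are the protein parts of lipoproteins, the particles that carry lipids in blood and lymph. Their transcripts were followed here through 10 genes, APOA1, APOA2, APOA4, APOB, APOC1, APOC2, APOC3, APOE, APOH and APOM, taken by gene symbol from the 60564 genes listed for every library, and each of the 10 was found once. The 23 libraries came from 2 established human cell lines, Caco-2, a colorectal adenocarcinoma line that stood for the gut (11 libraries), and HepG2, a hepatocellular carcinoma line that stood for the liver (12 libraries). Each line was mono-cultured or co-cultured with the other in the iGLC platform, a microfluidic gut-liver chip with a closed circulation loop, and either received no free fatty acids (control) or 1 mM FFAs, palmitic and oleic acid together, for 1 day. Co-cultured control Caco-2 cells had 2 libraries and the other 7 groups had 3 each. Both lines are single tumor-derived lines on a chip, so each group is a repeat of 1 line and not a sample of donors. The methods state that sequencing rested on independent experiments, but neither they nor the labels say which libraries came from which experiment or chip, so p-values measure the spread between these libraries, which may be technical. The labels put serum into the treatment medium, whereas the methods of the study describe a serum-free medium with albumin. The extraction text in the labels of all 23 libraries names myoblasts as the source of the RNA, against the cell lines given in their other labels.

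Liver and small intestine are the main sources of circulating apolipoproteins. APOB is the large structural protein around which very-low-density lipoproteins in the liver and chylomicrons in the intestine are built, APOA1 and APOA2 are the main proteins of high-density lipoproteins, and the small C apolipoproteins move between particles and set how fast their triglycerides are hydrolyzed. APOC2 is the cofactor that lipoprotein lipase needs, APOC3 counteracts this hydrolysis and the uptake of the remnants, and APOE is the ligand by which remnants bind to their receptors. Fatty acids taken up by hepatocytes leave the cell largely as triglycerides in APOB-containing particles.

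On GRCh38, 6 of the 10 genes lie in 2 clusters. On chromosome 11, APOA4 (chr11:116820700-116823304, minus strand), APOC3 (chr11:116829706-116833072, plus strand) and APOA1 (chr11:116835751-116837622, minus strand) lie within 16923 bp. On chromosome 19, APOE (chr19:44905791-44909393), APOC1 (chr19:44914247-44919349) and APOC2 (chr19:44946035-44949565) lie on the plus strand within 43775 bp. The other genes are APOA2 (chr1:161222292-161223631, minus strand), APOB (chr2:21001429-21044073, minus strand), APOH (chr17:66212033-66256525, minus strand) and APOM (chr6:31652416-31658210, plus strand). The library kit does not keep the strand, and 1506 bp of the antisense gene APOA1-AS overlap APOA1, so reads from that stretch cannot be told apart; APOA1-AS was listed at 0.76 TPM at most. The readthrough gene APOC4-APOC2 was listed at 1.55 TPM at most, and APOC1P1, a pseudogene copy of APOC1, at 0.00 to 8.54 TPM in Caco-2 cells and 6.17 to 21.4 TPM in HepG2 cells, so the split of reads between these and APOC2 or APOC1 is uncertain at that scale.

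RefSeq promoter windows on GRCh38, 250 bases before to 50 bases after the start of transcription, were at hand for 7 of the 10 genes; APOA1, APOB and APOC3 had none. The 3 windows below are shown because they belong to the gene that set the lines furthest apart (APOC2), to the gene with the highest TPM in HepG2 cells (APOA2) and to a gene with more TPM in Caco-2 cells (APOE, the first of its 3 windows). Capitals mark the letters TATAAA, which spell the TATA box.
APOC2, chr19:44945801-44946100, plus strand: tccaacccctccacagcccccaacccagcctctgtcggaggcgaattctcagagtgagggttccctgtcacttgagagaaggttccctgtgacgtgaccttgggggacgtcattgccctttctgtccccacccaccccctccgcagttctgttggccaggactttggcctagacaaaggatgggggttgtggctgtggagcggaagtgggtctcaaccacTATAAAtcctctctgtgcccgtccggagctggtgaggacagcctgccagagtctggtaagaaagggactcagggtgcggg
APOA2, chr1:161223579-161223878, minus strand: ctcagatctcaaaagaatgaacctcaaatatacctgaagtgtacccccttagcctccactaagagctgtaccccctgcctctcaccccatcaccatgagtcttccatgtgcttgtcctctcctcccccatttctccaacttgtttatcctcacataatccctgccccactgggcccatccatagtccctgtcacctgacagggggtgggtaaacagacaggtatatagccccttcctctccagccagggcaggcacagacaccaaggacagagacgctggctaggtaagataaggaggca
APOE, chr19:44905546-44905845, plus strand: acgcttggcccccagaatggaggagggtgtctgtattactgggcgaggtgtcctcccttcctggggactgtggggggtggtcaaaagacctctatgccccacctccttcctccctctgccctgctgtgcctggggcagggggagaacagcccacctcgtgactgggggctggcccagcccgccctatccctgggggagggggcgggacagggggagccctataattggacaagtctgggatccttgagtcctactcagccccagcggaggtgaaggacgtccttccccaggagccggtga
Of the 7 genes, only APOC2 held any of 4 motifs searched on both strands, with TATAAA 30 to 25 bases before its start. TATAAA is present in 11.5% of 35116 human promoter windows of this length. The other motifs were the HNF4 motif CAAAGTCCA (0.384% of the windows), the direct repeat 1 bound by nuclear receptors (0.0228%) and the HNF1 palindrome (0.0057%), and no match says only that these letters are not in these windows. G and C made up 59.7% of the APOC2 window, 53% of the APOA2 window and 65% of the APOE window.

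Expression was deposited as TPM, a share of the library corrected for transcript length and scaled to the same total in each library, so levels of different genes can be compared while the number of reads behind a value is unknown. The number of genes above 0 TPM ranged from 19259 to 23689 over the libraries. All 8 hepatocyte markers were at least 1 TPM in both lines and higher in HepG2 cells, where their sum was 45463 to 67579 TPM against 3127 to 5525 TPM in Caco-2 cells. Of 10 enterocyte markers, 8 reached a mean of 1 TPM in both mono-cultured Caco-2 groups (all but CDX1 and FABP2) and 7 in both co-cultured ones. In mono-culture controls, 7 were higher in Caco-2 than in HepG2 cells, while ANPEP and FABP2 were higher in HepG2 cells. RNA of the other line, read from 33 genes with at least 50 TPM in HepG2 and at most 1 TPM in Caco-2 mono-culture controls and 63 genes of the opposite kind, amounted to between 0.0901% and 2.09% of its own level in co-cultured Caco-2 libraries, and to between 0.190% and 0.613% in co-cultured HepG2 libraries. The same markers gave 0.102% to 0.194% and 0.127% to 0.242% in mono-culture. In bulk RNA, fewer cells of a kind and less RNA per cell cannot be told apart.

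The 10 genes ranged from the most abundant transcripts of the cells to barely listed ones. By mean TPM among all genes, APOA1 ranked 1 or 2 in the Caco-2 groups and 4 to 6 in the HepG2 groups, and APOE 8 to 10 and 23 to 29. In Caco-2 cells the 10 genes took 1.93% ± 0.291 (SD, n = 11) of all TPM, of which APOA1 made up 58.9%. In HepG2 cells they took 4.29% ± 0.595 (SD, n = 12), of which APOA2 made up 54.7% and APOA1 23%. APOA1 had the highest TPM of any gene in 5 of the 11 Caco-2 libraries. APOA2 ranked 3 among all genes by mean TPM in each of the 4 HepG2 groups. APOA4, an intestinal apolipoprotein of chylomicrons, had the lowest TPM of the 10 in HepG2 cells, 5.78 to 27.8, and had 10.9 to 38.4 TPM in Caco-2 cells. In Caco-2 cells APOC2 was lower still, at 0.00 to 11.7 TPM, with ranks from 10782 to 16185.

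**Figure D1:**
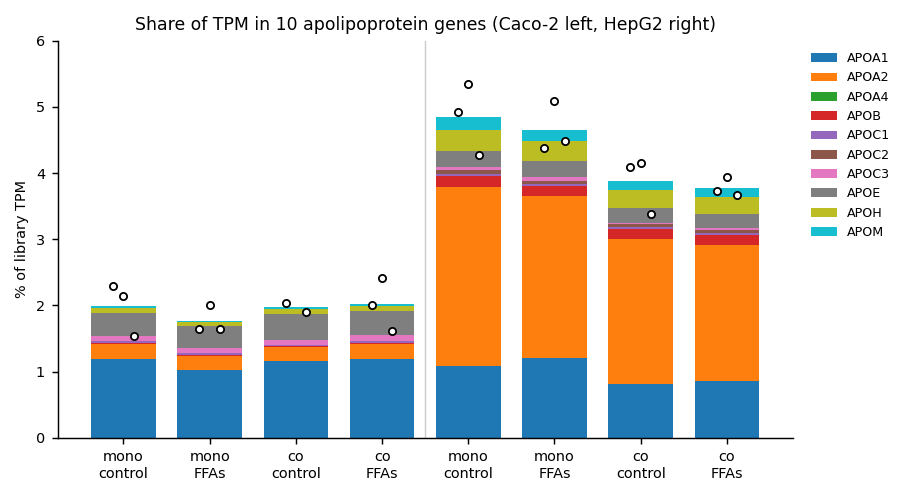
Percent of library TPM (y axis) taken by the 10 genes in each group (x axis), as stacked group means by gene, with each library's sum as an open point. The 12 HepG2 libraries lie between 3.38% and 5.34%, all above the 11 Caco-2 libraries, which lie between 1.54% and 2.42%.

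The lines were first compared where neither had met the other or the FFAs, in mono-cultured control cells. HepG2 cells had more APOC2, APOA2, APOB, APOM, APOH and APOC1, and Caco-2 cells more APOC3 and APOE, while APOA1 and APOA4 were not called. By limma on log2(TPM + 1) with Benjamini-Hochberg adjustment at 0.05, all 10 genes passed the filter on low values and 8 were called, beside 62.4% of the 16495 genes tested. The 6 called higher in HepG2 cells stand beside 23.4% of all genes and the 2 called lower beside 39%. The median difference, HepG2 minus Caco-2, was 1.45 on the log2(TPM + 1) scale over the 10 genes and -0.20 over all genes. Median-of-ratios scaling, which sets the latter near 0 (-0.03), added about that shift to the differences below.

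Among the high-density lipoprotein genes, APOA2 had 28937, 29904 and 22317 TPM in mono-cultured control HepG2 libraries and 2074, 1992 and 2527 TPM in Caco-2 libraries. The groups were far from overlapping, with a difference of 3.62 on the log2 scale (SE 0.15, limma adjusted p = 8.94e-14), a ratio of means of 12.3. The same ratio was 11.2 in mono-culture with FFAs, 10.4 in co-culture without and 9.41 in co-culture with FFAs. APOA1, by contrast, had 10236, 12673 and 9713 TPM in HepG2 libraries and 15004, 13853 and 7544 TPM in Caco-2 libraries, which overlap. Its difference of -0.11 (95% interval -0.59 to 0.38, limma adjusted p = 0.718) leaves room for either direction. Quantile normalization, which ties the most abundant genes of all libraries to the same values, gave -1.34 for APOA1 (adjusted p = 1.13e-06; the range over all alternatives reached 0.958). APOM, a high-density lipoprotein protein that carries sphingosine-1-phosphate, had 2152, 2363 and 1586 TPM in HepG2 libraries against 289, 240 and 172 TPM in Caco-2 libraries, a difference of 3.13 (SE 0.23, limma adjusted p = 7.06e-10). APOA4 had 15.7, 18.1 and 6.95 TPM in HepG2 libraries and 18.0, 13.8 and 10.9 TPM in Caco-2 libraries, with a difference of -0.14 (95% interval -1.16 to 0.89).

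APOB had 1113, 1615 and 2052 TPM in mono-cultured control HepG2 libraries and 164, 162 and 131 TPM in Caco-2 libraries. The lowest HepG2 library was thus well above the highest Caco-2 library, with a difference of 3.34 (SE 0.31, limma adjusted p = 1.44e-08) and a ratio of means of 10.5. In the intestine APOB mRNA is edited by APOBEC1 to give the short form of the protein, and APOBEC1 was at most 0.43 TPM in any Caco-2 library and 0.13 TPM in any HepG2 library. TPM per gene do not show which form of APOB was made.

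The C apolipoproteins differed in both directions. APOC2 had 711, 661 and 462 TPM in mono-cultured control HepG2 libraries, whereas in Caco-2 libraries it was listed at 0.00, 0.87 and 0.46 TPM. Its difference of 8.75 (SE 0.47, limma adjusted p = 4.84e-12) was the largest among the 10 genes, although a pseudocount of 1 understates a change from so low a level. APOC1, which lies 26685 bp upstream of APOC2 and inhibits the cholesteryl ester transfer protein, had 339, 339 and 284 TPM in HepG2 libraries and 192, 182 and 170 TPM in Caco-2 libraries, a difference of 0.82 (SE 0.11, limma adjusted p = 2.20e-06). APOC3 went the other way. It had 376, 473 and 436 TPM in HepG2 libraries and 835, 801 and 663 TPM in Caco-2 libraries, without overlap, and a difference of -0.84 (SE 0.19, limma adjusted p = 0.000675).

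APOE had 2589, 2302 and 2633 TPM in mono-cultured control HepG2 libraries and 3523, 3401 and 3494 TPM in Caco-2 libraries. All Caco-2 libraries were higher, by 1.39 times on average, and the difference was -0.47 (SE 0.12, limma adjusted p = 0.00217). Under median-of-ratios scaling the difference was -0.28 and no longer called (adjusted p = 0.085, within a range of 0.000283 to 0.085 over the alternatives). APOH, a phospholipid-binding plasma protein also called beta-2-glycoprotein, had 2807, 3052 and 3208 TPM in HepG2 libraries and 767, 711 and 647 TPM in Caco-2 libraries, a difference of 2.09 (SE 0.18, limma adjusted p = 4.42e-09).

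**Figure D2:**
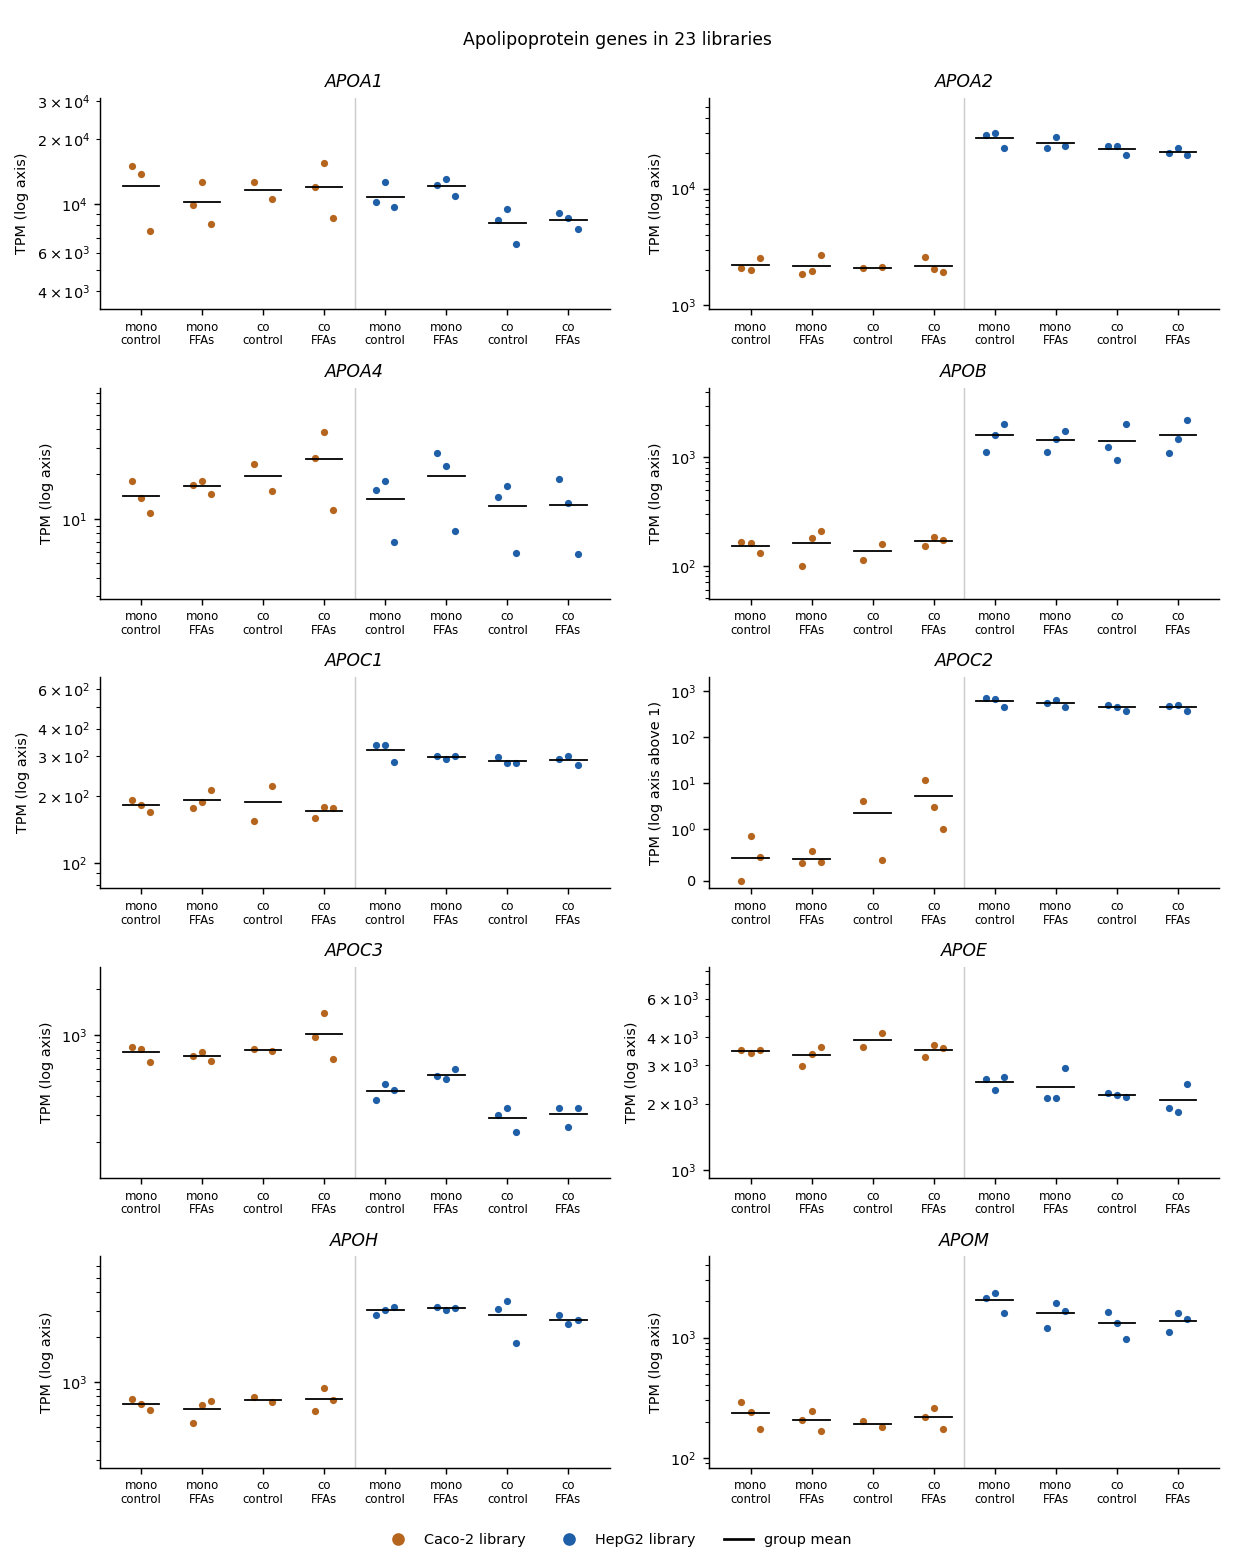
TPM (y axis, log scale; for APOC2 linear below 1) of the 10 genes in each library (points, replicates 1 to 3 from left to right) of the 8 groups (x axis), with group means as lines. In every condition APOA2, APOB, APOC1, APOC2, APOH and APOM are higher in HepG2 cells and APOC3 and APOE in Caco-2 cells. APOA4 overlaps between the lines in each condition. APOA1 overlaps except in co-cultured controls, where Caco-2 libraries have at least 10550 TPM and HepG2 libraries at most 9544 TPM.

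**Figure D3:**
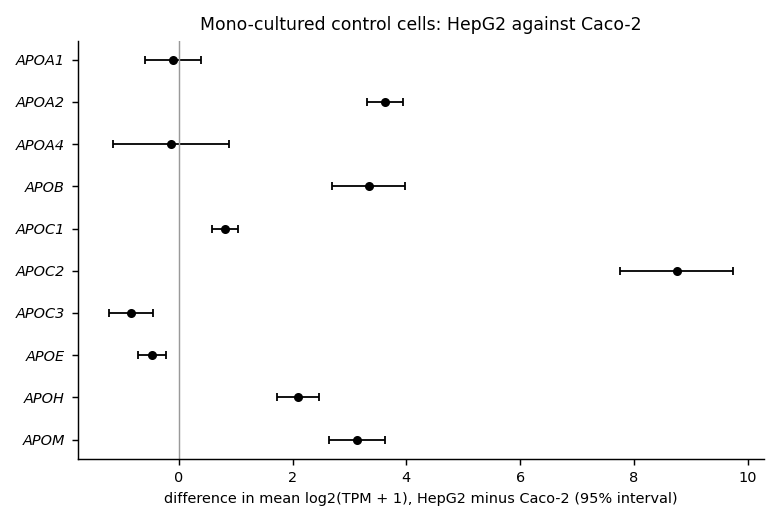
Difference in mean log2(TPM + 1) between mono-cultured control HepG2 and Caco-2 cells (x axis, HepG2 minus Caco-2) for each gene (y axis), with 95% intervals from limma. The values run from -0.84 for APOC3 to 8.75 for APOC2, and the intervals of APOA1 and APOA4 include 0.

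Other genes of lipoprotein metabolism were read as lists. Of 14 other apolipoprotein genes, 10 could be tested between the lines and 6 were called, beside the 62.4% of all genes called in this comparison (23.4% higher and 39% lower in HepG2 cells), against which the next 2 lists are also to be read. APOA5, APOF, APOL1, APOL3 and CLU were higher in HepG2 cells and APOD was lower. CLU, a chaperone found on high-density lipoproteins, stood at 2613 ± 260.2 TPM in HepG2 controls and at 665 ± 29.1 TPM in Caco-2 controls (SD, 3 libraries each), and APOD had 265 ± 30 TPM in Caco-2 cells while it was below 1 TPM in those HepG2 cells. Of 21 genes for particle assembly, remodelling and uptake, 17 were tested, 6 were called higher in HepG2 cells and 3 lower. MTTP, which loads lipid onto nascent APOB, was among the former with 131 ± 24.6 TPM against 8.98 ± 3.53 TPM (difference 3.79, SE 0.35, limma adjusted p = 1.68e-08), as was LCAT, which esterifies cholesterol on high-density lipoproteins (3.87, SE 0.24). PLTP, which transfers phospholipids between particles, was lower in HepG2 cells (-2.62, SE 0.16). Of 11 transcription regulators, 6 were called higher in HepG2 cells and 3 lower. NR1H4, the bile acid receptor, was at 36.2 ± 4.51 TPM in HepG2 cells and 0.11 ± 0.0819 TPM in Caco-2 cells. HNF4A, a regulator of many apolipoprotein genes, was at 85.1 ± 14.4 TPM and 99.9 ± 7.63 TPM, with a difference of -0.24 (SE 0.17, limma adjusted p = 0.234).

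Whether the presence of Caco-2 cells changed the apolipoproteins of HepG2 cells was asked by comparing co-culture with mono-culture, averaged over control and FFAs. All 10 genes had a lower mean in co-culture. APOC3 fell and was the only one called, beside 0.0561% of the 14255 genes tested (0.0281% called lower). The median difference was -0.32 over the 10 genes and -0.02 over all genes, and 5 of the 10 genes were at an unadjusted p under 0.05, beside 12.5% of all genes.

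APOC3 had 376, 473 and 436 TPM in mono-cultured control HepG2 libraries and 296, 332 and 231 TPM in co-cultured ones. With FFAs, it had 539, 513 and 594 TPM in mono-culture and 331, 249 and 330 TPM in co-culture. Over both treatments, every co-cultured library was below every mono-cultured one, as was the case for 0.758% of all genes tested. The mean of 6 libraries went from 488 ± 77.6 TPM to 295 ± 44.9 TPM (SD), a difference of -0.73 on the log2 scale (SE 0.11, limma adjusted p = 0.0478). Separately, the difference was -0.59 (SE 0.15) without FFAs and -0.86 (SE 0.15) with FFAs, neither past the adjusted threshold (limma adjusted p = 0.574 and 0.398). The averaged call lay close to the threshold. It was kept under 5 of 21 alternatives and lost under 16, with adjusted p from 0.0165 to 0.127 and the difference between -0.78 and -0.65 throughout.

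APOA1, its neighbor on chromosome 11, had 10236, 12673 and 9713 TPM in mono-cultured control and 12350, 13067 and 10890 TPM in mono-cultured FFAs-treated HepG2 libraries. In co-culture it had 8490, 9544 and 6591 TPM without and 9141, 8623 and 7725 TPM with FFAs. Again no co-cultured library reached a mono-cultured one, as was the case for 0.758% of all genes in this direction, and the difference was -0.46 (SE 0.11, limma adjusted p = 0.128). APOC3 and APOA1 were also the only ones of the 10 that met the criteria of the study among the 4 HepG2 groups (unadjusted p and size of difference), which 3.56% of genes met.

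The remaining genes were not called. APOM, with 2152, 2363 and 1586 TPM in mono-culture and 1636, 1328 and 965 TPM in co-culture without FFAs, differed by -0.65 (SE 0.23), and by -0.20 (SE 0.23) with FFAs (averaged -0.42, limma adjusted p = 0.313). APOC2 had 711, 661 and 462 TPM in mono-culture and 499, 460 and 369 TPM in co-culture without FFAs, a difference of -0.45 (SE 0.19), and one of -0.27 (SE 0.19) with FFAs (averaged -0.36, limma adjusted p = 0.293). The averaged differences of APOA4 (-0.38, SE 0.38), APOA2 (-0.27, SE 0.10), APOH (-0.20, SE 0.13), APOE (-0.19, SE 0.10) and APOC1 (-0.10, SE 0.06) were below 0 as well. APOB, with 949 to 2204 TPM over the 12 libraries, had the smallest difference of the 10 (-0.06, SE 0.23, 95% interval -0.55 to 0.44), and its sign turned when single libraries were left out. The share of TPM in the 10 genes was 4.85% ± 0.54 and 4.65% ± 0.384 in mono-culture (control and FFAs, SD, n = 3 each) and 3.88% ± 0.43 and 3.78% ± 0.142 in co-culture.

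The 8 hepatocyte markers moved the same way in co-cultured HepG2 cells. All 8 were lower, with a median difference of -0.24 and none called by limma (4 at an unadjusted p under 0.05), and their sum ranged from 45463 to 60909 TPM in co-culture against 56673 to 67579 TPM in mono-culture. Of the enterocyte markers, 5 could be tested in HepG2 cells, with a median difference of -0.29 and none called by limma (3 lower, 2 higher, 2 at an unadjusted p under 0.05), and the sum of all 10 ranged from 367 to 494 TPM in co-culture against 462 to 586 TPM in mono-culture. The part of either list in the apolipoprotein differences was not tested. With the marker-based share of Caco-2 RNA subtracted, the APOC3 difference was -0.74 (limma adjusted p = 0.0365). Of the other lists, limma called 0 of 10 other apolipoproteins (2 at an unadjusted p under 0.05), 0 of 17 genes of assembly, remodelling and uptake (2 unadjusted) and 0 of 11 regulators (0 unadjusted).

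**Figure D4:**
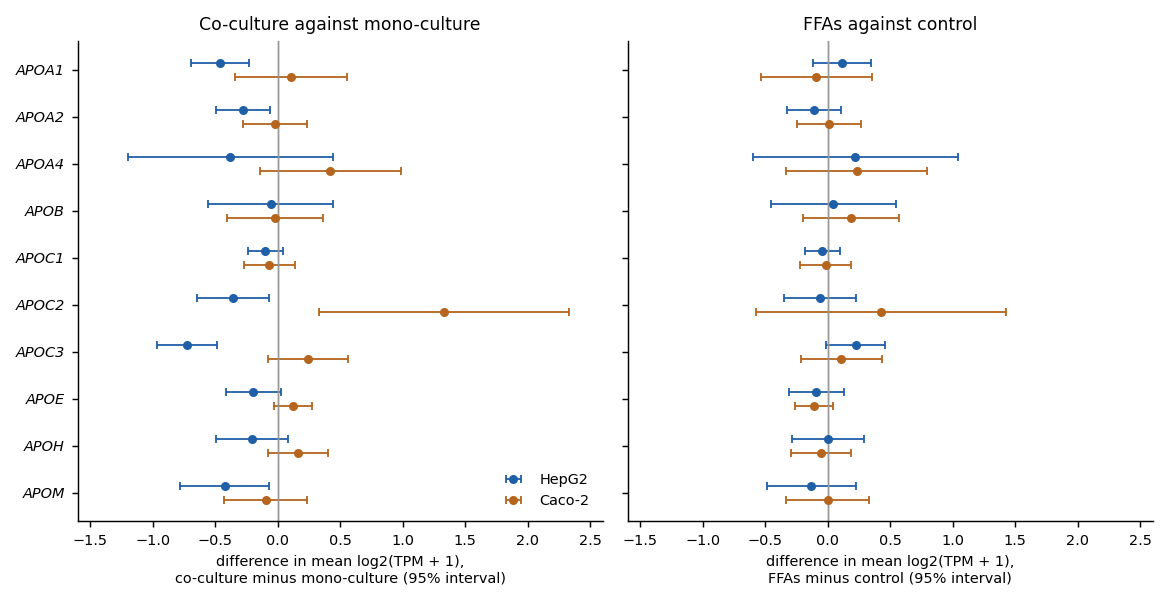
Differences in mean log2(TPM + 1) with 95% limma intervals (x axis) for the 10 genes (y axis), co-culture minus mono-culture averaged over treatments on the left and FFAs minus control averaged over cultures on the right, for HepG2 (blue) and Caco-2 (brown). In HepG2 cells all 10 values for co-culture lie below 0, with APOC3 lowest at -0.73, whereas the values for FFAs lie between -0.13 and 0.22.

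In Caco-2 cells, none of the 10 genes was called for co-culture (limma, 0% of 15081 genes called; 1 gene, APOC2, at an unadjusted p under 0.05, beside 10.5% of all genes). None met the criteria of the study among the 4 groups, which 3.08% of genes met. APOC2 was listed at 0.00, 0.87 and 0.46 TPM in mono-cultured control libraries and at 0.35, 0.58 and 0.36 TPM with FFAs. In co-culture it had 4.06 and 0.41 TPM without and 11.7, 3.11 and 1.02 TPM with FFAs, so that 4 of the 5 co-cultured libraries were above all mono-cultured ones, with a difference of 1.33 (SE 0.46, limma adjusted p = 0.374). APOC2 passed the filter on low values in this line only through the co-cultured groups.

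Over the 5 co-cultured Caco-2 libraries, HepG2 marker RNA moved with APOC2. It stood at 0.839% and 0.0901% of its HepG2 level in the co-cultured control libraries and at 2.09%, 0.220% and 0.0996% in the co-cultured FFAs libraries, in the same order as APOC2 above, against 0.102% to 0.194% in mono-culture. The co-cultured FFAs library with 0.0996% had 1.02 TPM of APOC2, above every mono-cultured library, while its marker RNA was below that of each. The 3 libraries with the most HepG2 RNA were also the 3 with the most APOC2. After that share of the co-cultured HepG2 level was subtracted, with no allowance for the marker share seen in mono-culture, APOC2 was at 0.347, 0.0112, 2.23, 2.11 and 0.57 TPM in these libraries, and the difference was 0.28 (SE 0.25, limma adjusted p = 0.73). The subtraction takes the marker share as given, and the part of HepG2 RNA in the APOC2 values was not tested.

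**Figure D5:**
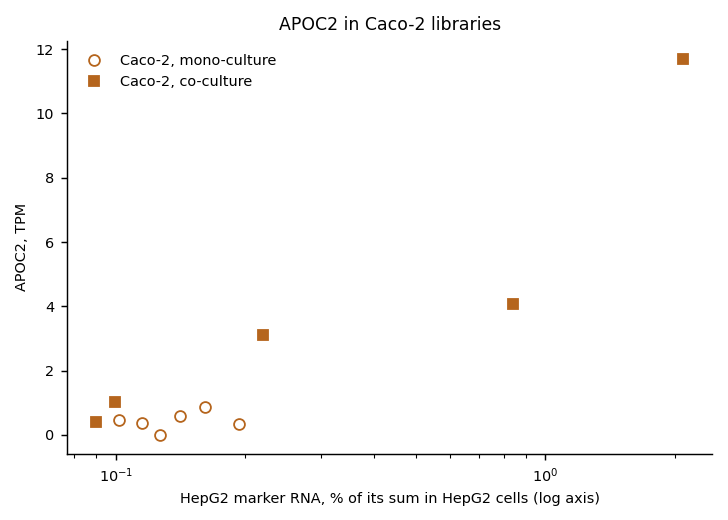
APOC2 in TPM (y axis) against HepG2 marker RNA, in percent of its sum in mono-cultured control HepG2 cells (x axis, log scale), in 6 mono-cultured (circles) and 5 co-cultured (squares) Caco-2 libraries. The library with 2.09% HepG2 marker RNA has the highest APOC2, 11.7 TPM, and the 6 mono-cultured libraries stay below 1 TPM.

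The other 9 genes differed by less in Caco-2 cells. APOC3 had 804 and 780 TPM in co-cultured control and 972, 1389 and 689 TPM in co-cultured FFAs libraries, within or above its mono-culture range of 663 to 835 TPM. Its difference was 0.25 (SE 0.15, limma adjusted p = 0.592). APOA4 (0.42, SE 0.26), APOH (0.16, SE 0.11) and APOE (0.12, SE 0.07) had higher means as well, without a call. APOA1 had 12655 and 10550 TPM in co-cultured control libraries and 12031, 15488 and 8690 TPM with FFAs, inside its mono-culture range of 7544 to 15004 TPM but for 1 library. The 95% interval for APOC3 ran from -0.08 to 0.57. Taken without FFAs alone and with FFAs alone, co-culture gave 0 calls among the 10 genes in Caco-2 cells, beside 0.0199% and 0% of all genes. At an unadjusted limma p under 0.05 were 0 and 2 of the 10 genes (APOC2 and APOC3, both with FFAs), beside 5.43% and 6.09% of all genes. APOC2 passed the filter on low values only through the co-cultured groups, so its place in this count is no support for a difference.

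The difference of the culture effect between the lines was then tested in 1 fit of all 23 libraries. APOC3 was called, with a culture effect in HepG2 cells lower than that in Caco-2 cells by a difference of -0.97 (SE 0.19, limma adjusted p = 0.0289), beside 0.533% of 16495 genes called (0.333% lower and 0.2% higher). The hepatocyte markers moved with it: in this test all 8 had estimates below 0 (median -0.44) and 2 were called, and in Caco-2 cells 7 of the 8 were higher in co-culture (median 0.30, 0 called by limma, 2 at an unadjusted p under 0.05). HepG2 marker RNA in the same co-cultured Caco-2 libraries ranged from 0.0901% to 2.09% of its HepG2 level. Neither the part of this RNA in the hepatocyte markers nor the part of these markers in the APOC3 result was tested. The estimates of the other 9 genes were also below 0 and were not called. The largest were APOC2 at -1.69 (SE 0.49, limma adjusted p = 0.11), which was -0.64 after subtraction of the other line's RNA, and APOA1 at -0.57 (SE 0.24, limma adjusted p = 0.279).

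FFAs, the lipid load of this model, did not move any of the 10 genes past the threshold in either line. Limma called 0 in HepG2 cells and 0 in Caco-2 cells for FFAs against control averaged over cultures, as it did for all genes (0% called), and 0 of the 10 genes had an unadjusted p under 0.05 there, beside 3.49% of genes in HepG2 and 3.99% in Caco-2 cells. In HepG2 cells the averaged differences ran from -0.13 for APOM (SE 0.16) to 0.22 for APOC3 (SE 0.11). For APOB, the carrier of the lipid that hepatocytes export, it was 0.05 with a 95% interval from -0.45 to 0.54, so that a change in either direction lies within the error. In mono-cultured HepG2 cells APOC3 had 539, 513 and 594 TPM with FFAs and 376, 473 and 436 TPM without. Its difference of 0.36 (SE 0.15, limma adjusted p = 1) was the only one of the 10 at an unadjusted p under 0.05, beside 2.24% of all genes. In Caco-2 cells the averaged differences ran from -0.11 for APOE (SE 0.07) to 0.43 for APOC2 (SE 0.46). Within single cultures limma also called 0 of the 10 genes for FFAs, beside 0.0199% of all genes in co-cultured Caco-2 cells and 0% elsewhere. For the difference of the FFAs effect between the cultures of each line and between the lines, no gene of the 10 passed (limma, 0 called and 0 at an unadjusted p under 0.05 in these 3 tests, with 0%, 0% and 0.0182% of all genes called). The other lists had 0 calls for FFAs in either line, with at most 2 genes of a list at an unadjusted p under 0.05.

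Over the 8 groups, the order of means separated the lines more than the conditions. Of the 7 pairs of neighbors in that order, 1 pair did not overlap for each of APOA2, APOB, APOC1, APOC2, APOE, APOH and APOM. Together with APOC3, 8 of the 10 genes had at least 1 such gap, as did 56.2% of the 16495 genes tested. For APOA1 and APOA4 all neighboring groups overlapped. APOC3 had 3 such gaps, a number reached by 1.42% of those genes. Its means were 1017, 792, 767 and 722 TPM in the 4 Caco-2 groups, then 549 TPM in mono-cultured FFAs-treated HepG2 cells, 428 TPM in mono-cultured control HepG2 cells, and 303 and 287 TPM in co-cultured HepG2 cells with and without FFAs.

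Within groups, the libraries numbered 3 often lay at one end. They were the lowest of their group for APOA1 and for APOA4 in all 3 Caco-2 groups that have one and in all 4 HepG2 groups. In HepG2 cells they were the highest for APOB and the lowest for APOC2 in all 4 groups. Without these libraries the APOC3 difference between co-cultured and mono-cultured HepG2 cells was -0.65 and no longer called (limma adjusted p = 0.0936). The genes whose profile over libraries was most like that of APOA1, by Pearson correlation of log2(TPM + 1), were PCOLCE (0.968), SERPINA6 (0.942) and ATOX1 (0.936) over 11 Caco-2 libraries, and ECI2 (0.957), TRIM73 (0.956) and FCGRT (0.955) over 12 HepG2 libraries. For APOB they were PDPR (0.955), HSPG2 (0.94) and LNX2 (0.936) in Caco-2 cells and NFAT5 (0.972), GNAQ (0.971) and ITGA6 (0.955) in HepG2 cells. These likenesses describe libraries that share a preparation and a scale to a fixed sum, and were picked as the highest of 9499 and 8891 genes with at least 10 TPM.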

How the data were processed

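mRNA-seq was measured in 23 libraries of Caco-2 and HepG2 cells, grouped by the sample labels. Per the labels and the methods of the study, the authors prepared cDNA with the SMART-Seq v4 kit, removed rRNA, tRNA and mitochondrial reads with Bowtie2 (2.1.0), aligned the rest by STAR (2.7.1a) on GRCh38 with Ensembl gene models, and deposited TPM from RSEM (1.3.0); depth is therefore unknown and no counting error is given. Values were analysed as log2(TPM + 1) with R 4.3.3 and Python 3.11.15. Contrasts were fitted with limma 3.58.1 (eBayes with a trend) on all groups of a line, or all 8 groups, keeping each gene whose group mean reached 1 TPM in any group, and adjusted by Benjamini-Hochberg over all genes tested. The study's own criteria were recomputed as counts only. The 10 genes, the lists (other apolipoproteins, assembly, remodelling and uptake, regulators, hepatocyte and enterocyte markers) and the tests were chosen with earlier results of these data known. Named genes were the 10 members, genes that share reads with them, other apolipoproteins above 100 TPM, called genes of the assembly list, the regulators, and the 3 genes most like APOA1 and APOB; examples are given. Coordinates come from GENCODE v44, and promoters from RefSeq on GRCh38. Simulated data had 100 genes changed by each amount and independent noise, without correlation between libraries of the same replicate number. The changed genes were drawn only from those above a set mean level, which APOC2 in Caco-2 cells does not reach. With the spread of HepG2 libraries and 14255 genes, the averaged culture contrast recovered 45% of changes of 0.5 and 82% of changes of 1 on the log2 scale. With that of Caco-2 libraries and 15081 genes, it recovered 50% and 96%. In the real contrast 8 genes (HepG2) and 0 genes (Caco-2) were called. With so many more genes changed, the adjusted threshold is easier to pass in the simulated data. Recovery in the real data may be lower.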

Additional observations from a re-analysis of the deposited data

Results flagged for a closer look

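The effect of co-culture on APOC3, the inhibitor of triglyceride hydrolysis on lipoproteins, differed between HepG2 and Caco-2 cells by -0.97 on the log2(TPM + 1) scale (SE 0.19, limma adjusted p = 0.0289), in a direct test of the difference over all 23 libraries. In HepG2 cells the 6 co-cultured libraries had 231 to 332 TPM, below the 6 mono-cultured libraries with 376 to 594 TPM. Such a separation in this direction was seen for 0.758% of all genes tested in that line. In Caco-2 cells the 5 co-cultured libraries had 689 to 1389 TPM and the 6 mono-cultured libraries 663 to 835 TPM. The call was kept under 24 of 31 alternatives and lost under 7, with adjusted p from 0.00573 to 0.0677.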

How the results depend on the processing

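Of 68 values and counts recomputed, 50 counted as unchanged under every alternative run. For single genes, unchanged meant the same direction and the same side of the threshold. Counts of genes and shares of TPM could move within a margin. The number of the 10 genes called between the lines, 8, ranged from 7 to 9 and counted as unchanged. Some runs changed the values: pseudocount of 0.1, median-of-ratios scaling, quantile normalization, the 10 genes left out of the total, or other-line RNA subtracted. Others changed the fit, with no filter, no trend, only the groups compared, or the replicate number as a block. The rest left out each library in turn or, chosen after seeing the data, all libraries numbered 3. For co-culture in HepG2 cells, the number of genes called was 0 instead of 1 under median-of-ratios scaling, quantile normalization, no filter, no trend and without the libraries numbered 3, and 0 to 1 when single libraries were left out; the call on APOC3 was kept only without co-cultured FFAs replicate 3. For the culture effect between lines, the number was 0 without the filter and 0 to 2 over single libraries left out. It was lost without Caco-2 co-culture control replicate 1 or 2, Caco-2 mono-culture FFAs replicate 1, HepG2 co-culture control replicate 3, HepG2 co-culture FFAs replicate 2 or HepG2 mono-culture control replicate 2, and rose to 2 without Caco-2 co-culture FFAs replicate 3. The study's criteria were met by 0 to 3 genes in Caco-2 cells, 3 being the number without co-culture FFAs replicate 3. In HepG2 cells they were met by 1 (without mono-culture FFAs replicate 2) to 4 (without mono-culture control replicate 3), and by 0 with adjusted p. The share of TPM moved to 1.79% in co-cultured control Caco-2 cells and to 4.08% in co-cultured FFAs-treated HepG2 cells under median-of-ratios scaling. The cause of these changes was not tested.

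Signs turned for values near 0. Between the lines, APOA1 was at 0.0904 and APOA4 at 0.0447 under median-of-ratios scaling, and APOA4 at 0.114 under quantile normalization. With single libraries left out, APOA1 ranged from -0.417 to 0.0793 (above 0 without Caco-2 mono-culture control replicate 1 or 2) and APOA4 from -0.378 to 0.254 (above 0 without Caco-2 mono-culture control replicate 1 or HepG2 mono-culture control replicate 3). APOB in co-cultured HepG2 cells ranged from -0.21 to 0.0672 (above 0 without co-culture control replicate 2, co-culture FFAs replicate 1, or replicate 3 of either mono-culture group), and APOC2 under FFAs in Caco-2 cells from -0.0353 (without co-culture control replicate 2) to 0.886.

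With the replicate number as a block, 4 of the 10 genes (APOA1, APOA2, APOC2 and APOC3) were called in co-cultured HepG2 cells, where calls over all genes went from 8 to 492, 2 (APOC3 and APOA1) in the culture effect between lines, and 5 met the study's criteria in HepG2 cells; APOA4 between the lines was at 0.0756. The numbers were not taken as pairs: same-numbered libraries had correlations of deviations from -0.121 to 0.362 in Caco-2 cells and from 0.0301 to 0.664 in HepG2 cells, and 5 of 11 and 10 of 12 libraries correlated best with their own number. The block changed no other call.

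With unknown depth, no error of counting can be given for any value, including those under 1 TPM. For the culture contrast averaged over treatments, changes of 0.5 on the log2 scale were recovered in 45% of simulated HepG2 cases. Contrasts within single cultures, with 2 to 3 libraries a group, were not simulated.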
